A study of Mus musculus with 7 samples.

Results

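Cytoplasmic ribosomal proteins are the protein parts of the ribosome outside mitochondria, and their genes are described here in mouse microglia, brain-resident macrophages, from hosts of an implanted glioma. Members were the protein-coding genes named Rpl, Rps or Rplp with a number, plus Rpsa, that reached an FPKM of at least 1 in at least 2 of the 7 libraries. FPKM is a level scaled to the length of the transcript and the reads of the library. The deposited table held 24537 genes, of which 84 carried such a name, 83 of those were protein-coding, and 80 were members: 49 of the large (60S) and 31 of the small (40S) subunit. They lie on many chromosomes, with 14 on chromosome 7 and 4 on X (Rpl10, Rpl36a, Rpl39 and Rps4x). Of the other 4, Rpl39l, Rpl10l and Rpl3l missed the FPKM minimum and Rps4l is annotated as a pseudogene.

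The hosts were C57BL/6 mice with the implanted 005 tumour, which models glioblastoma, and cells were sorted as CD45int CX3CR1+ at day 35. Animals of all groups carried the tumour, and the groups were control IgG (n = 2), the checkpoint antibody anti-CTLA4 (n = 2), and depletion of CD4 T cells together with anti-CTLA4 (n = 3). Whether replicates are separate animals is not in the labels, so a p-value here reflects the spread among 7 libraries and that spread may be technical. In the table's header the 2 anti-CTLA4 columns are numbered 29 and 30 in the sheet of samples, whereas the command in the same header gives anti-CTLA4 the numbers 10 and 11 and gives 29 and 30 to interferon-gamma receptor knockout libraries. Both are therefore given as labelled, and each direction that involves them depends on the label.

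A ribosome joins a large subunit, which forms peptide bonds and holds the exit tunnel, to a small subunit, which reads the mRNA. Most of the proteins are needed in equal numbers, and in vertebrates their mRNAs start with a pyrimidine tract (the TOP motif) through which mTORC1 sets their translation. Their genes are short, highly transcribed and copied into many processed pseudogenes, so that a read can match several places in the genome.

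Low values fell on whole reads and implied 84100000 to 108000000 reads per library, of which 49900000 to 61800000 lay in genes and 172000 to 359000 in the members. Even Rpl17, the lowest member, had 60 to 95 reads in every library. The microglia markers Tmem119 and P2ry12 were present in every library, and all 15 listed microglia markers passed the FPKM minimum. The summed marker level was 4730 to 5774 FPKM in the IgG libraries, 8987 to 12774 in those labelled anti-CTLA4, and 4081 to 6507 after CD4 depletion. The sum of 18 markers of oligodendrocyte precursor-like and tumour cells was 919 to 1255 FPKM in IgG, 50.03 to 119 in the libraries labelled anti-CTLA4, and 236 to 765 after CD4 depletion. Other marker sums moved too: erythroid was 47.4 to 328 FPKM in IgG, 939 to 980 in the libraries labelled anti-CTLA4 and 166 to 576 after CD4 depletion. Endothelial and mural was 37.5 to 48.9, 215 to 387 and 70.8 to 185, neuron 43.6 to 56.4, 5.25 to 10.01 and 14.5 to 41.6, and astrocyte 202 to 272, 74.0 to 111 and 182 to 305. CD4 depletion replicate 1 stood apart in monocyte (889 FPKM, against 30.03 to 57.1 in the other 6) and neutrophil (556, against 36.9 to 179) markers. Of 25 cell cycle genes, 11 fell against IgG (44% beside 28.8% of all genes) and 18 rose after CD4 depletion (72% beside 22.8%). In such bulk samples, fewer cells of a type and less RNA per cell cannot be told apart, and the part of this cell mixture in the results below was not tested.

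Rps27 and Rps27l are shown first because the paralogs lie far apart in deposited FPKM and Rps27l differed between groups. Rps27 encodes a small subunit protein with a zinc finger, and Rps27l is its paralog, known as a target of p53. Their coding sequences, from GENCODE M21 on GRCm38, are both 255 bases long and 76.1% identical, with the longest identical run 11 bases. Capitals mark the 61 positions at which the sequences differ.
Rps27: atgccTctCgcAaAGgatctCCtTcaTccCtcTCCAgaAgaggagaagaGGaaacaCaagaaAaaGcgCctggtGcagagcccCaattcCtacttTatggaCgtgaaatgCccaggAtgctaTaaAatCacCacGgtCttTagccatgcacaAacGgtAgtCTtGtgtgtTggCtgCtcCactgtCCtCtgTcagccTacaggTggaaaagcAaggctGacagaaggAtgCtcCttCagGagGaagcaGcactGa
Rps27l: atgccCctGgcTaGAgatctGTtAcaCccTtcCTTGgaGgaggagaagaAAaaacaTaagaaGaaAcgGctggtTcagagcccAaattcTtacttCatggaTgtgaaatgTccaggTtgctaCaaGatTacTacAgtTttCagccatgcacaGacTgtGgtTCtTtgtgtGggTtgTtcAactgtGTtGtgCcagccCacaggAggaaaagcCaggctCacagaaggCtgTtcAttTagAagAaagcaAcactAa

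With no shared run longer than 11 bases, an exact match of a longer read to the coding part of both genes is not possible. Rps27l had 147 and 151 FPKM in IgG, 87.1 and 56.3 in the libraries labelled anti-CTLA4, and 143, 138 and 155 after CD4 depletion.

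The start regions of 4 members are printed because 3 of them are among those with the smallest adjusted p below and Rps27 is the paralog of 1. Each run gives 80 bases before and 20 after the start in RefSeq (GRCm38.p6), on the strand of the gene, and capitals mark motifs out of a list of 6. The list held CCGGAAG (bound by ETS factors such as GABP), GGGCGG (Sp1), AAGATGG (YY1), the TATA-type TATAAA, and the pyrimidine runs CTCTTTC and CCTTTC, each searched on both strands. Rps27 is at chr3:90213629-90213728 and Rpl15 at chr14:18270967-18271066, both on the minus strand. Rps27l is at chr9:66946006-66946105 and Rpl27 at chr11:101442165-101442264, both on the plus strand, and the Rps27l start lies 10 bases from the one in the deposited table.
Rps27: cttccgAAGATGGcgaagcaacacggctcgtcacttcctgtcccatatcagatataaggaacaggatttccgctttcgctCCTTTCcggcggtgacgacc
Rps27l: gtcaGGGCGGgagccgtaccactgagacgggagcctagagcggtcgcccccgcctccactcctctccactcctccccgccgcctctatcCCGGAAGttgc
Rpl15: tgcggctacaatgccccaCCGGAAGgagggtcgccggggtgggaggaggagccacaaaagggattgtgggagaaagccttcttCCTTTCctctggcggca
Rpl27: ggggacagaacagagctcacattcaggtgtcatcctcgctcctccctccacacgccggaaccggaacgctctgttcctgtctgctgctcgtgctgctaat

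Rps27 held AAGATGG and CCTTTC, Rps27l held GGGCGG and CCGGAAG, Rpl15 held CCGGAAG and CCTTTC, and none of the 6 was found in the window of Rpl27. Over the longer window of 250 bases before to 50 after the start, 60 members matched an entry. CCGGAAG was in 36.7% of those members, 18.5% of 9843 promoters of tested genes and 9.23% of all 27025 promoters. CTCTTTC was in 26.7%, 7.49% and 8.07%, CCTTTC in 40%, 22.6% and 23.7%, and AAGATGG in 15%, 7.31% and 6.46%. GGGCGG was in 61.7% of members against 64.7% of tested genes, and TATAAA in 11.7% against 7.12%. These shares describe letters in a window, with no test, and none of the motifs contains another.

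The members spanned a wide range of levels. Rpl32, which had the highest mean at 315 FPKM, had 293 and 368 FPKM in IgG, 366 and 202 in the libraries labelled anti-CTLA4, and 325, 302 and 346 after CD4 depletion. Rpl4 followed with a mean of 237 FPKM. At the other end, Rpl9 had a mean of 2.37 FPKM, Rps12 of 1.57 and Rpl17 of 1.14. Rpl17 was also the member nearest the FPKM minimum, at 0.883 to 1.44 FPKM, and Rpl39l, a testis-enriched paralog of Rpl39, was the nearest gene outside it, above 1 FPKM in a single library (1.25 in anti-CTLA4 replicate 2). Rpl10l was listed at 0 in all 7 libraries. Members of the same particle were thus measured at mRNA levels from 1.14 to 315 FPKM.

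How much of each transcript is unique in the genome's transcripts varied as widely. For each member, in a check added after the values were seen, every run of 100 bases was looked up in all GENCODE M21 transcripts on both strands. The share found in no other gene ran from 8.43% for Rpl10, a late-joining 60S protein, to 100% for 7 members, among them Rpl32 and Rps27l. The 20 members with the highest mean FPKM had a median of 82.2% unique runs, and the 20 with the lowest had 23.5%. The 3 lowest members had 12.99% (Rpl9), 18.4% (Rps12) and 22.9% (Rpl17), and the genes that share most with them are named as their pseudogenes. Across the 80 members, the rank correlation of mean FPKM with the unique share was 0.54 for runs of 100 bases and 0.38 for runs of 50. The points share their libraries and their transcript lengths, the sources used here do not say how reads with several matches were counted, and the relation is given as a description. Rps27, at 54.4%, shares its span with Rps27rt, a protein-coding row on the same strand with 2.02 to 4.61 FPKM. Reads in the bases that the 2 share cannot be told apart. In all, 35 of 80 members overlapped another row, most often a small nucleolar RNA, and 9 overlapped a protein-coding row.

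**Figure D1:**
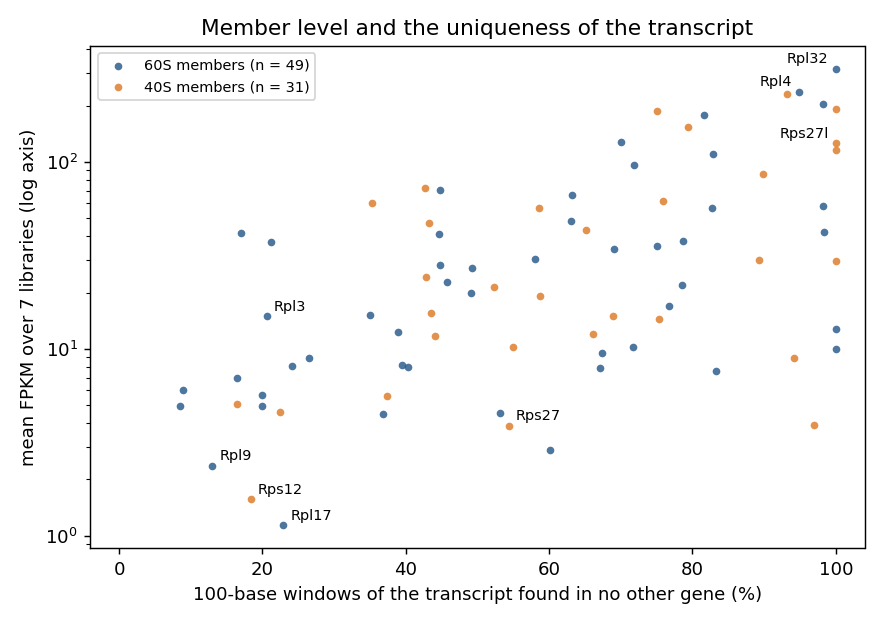
Mean FPKM of each member over 7 libraries (log axis) against the percentage of 100-base runs of its transcript that occur in no other gene, with 60S members in blue and 40S members in orange. Rpl17, Rps12 and Rpl9 sit low on the left, and Rpl32 and Rpl4 sit high on the right.

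By library, anti-CTLA4 replicate 2 stood apart from the other 6. The median member level was 21.4 and 25.5 FPKM in IgG, 21.3 and 13.7 in the libraries labelled anti-CTLA4, and 23.4, 22.3 and 23.3 after CD4 depletion. Replicate 1 of the libraries labelled anti-CTLA4 was therefore near the IgG libraries in its median, and replicate 2 was below every other library. Replicate 2 was the lowest of 7 in 70 of 80 members and was below replicate 1 in 75. Replicate 1 was below all 5 IgG and CD4 depletion libraries in 35 members, above all 5 in 13 and within their range in 32. Both libraries labelled anti-CTLA4 were below all 5 in the same 35 members, beside 41.3% of all tested genes. The other counts of members by library have no share of all genes beside them and are not read as particular to the members.

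**Figure D2:**
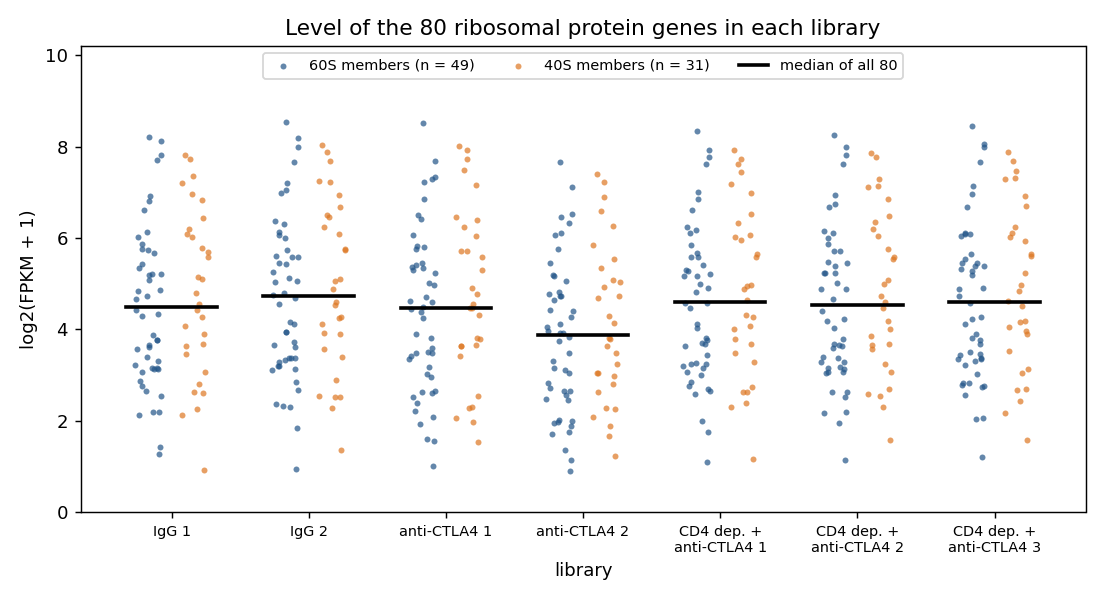
log2(FPKM + 1) of the 80 members in each of 7 libraries, with 60S members in blue, 40S members in orange and the median of all 80 as a black line. The median line is lowest in anti-CTLA4 replicate 2 and lies close together in the other 6 libraries.

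The difference between the libraries labelled anti-CTLA4 was larger for the members than for genes at large. On the log2(FPKM + 1) scale, replicate 2 minus replicate 1 had a median of -0.62 over the members and -0.05 over all 13028 tested genes. Other genes with a mean of at least 5 FPKM and a transcript under 1000 bases had a median of -0.35 (822 genes), and those of 4000 bases or more had 0.10 (1522 genes). The IgG pair differed by 0.22 over the members and 0.02 over all tested genes. Transcript length thus moved with the gap between the replicates, and its part in the members' levels was not tested. Against the mean of the 5 IgG and CD4 depletion libraries, replicate 1 had a median of -0.13 with 53 of 80 members below that mean. Replicate 2 had -0.72 with 76 below, and the share of all genes is not given for either.

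**Figure D3:**
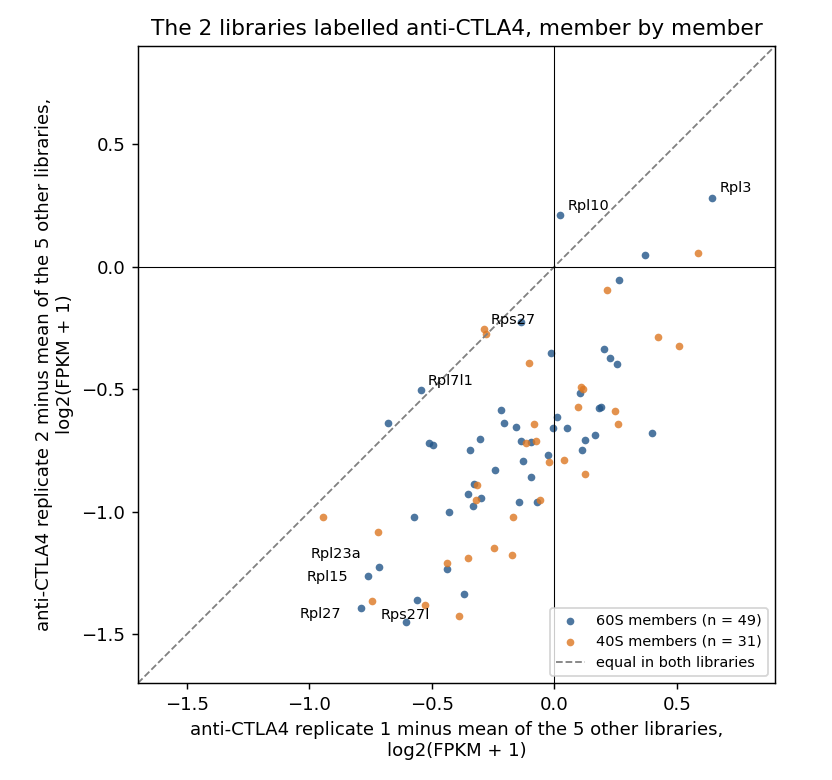
Each member's log2(FPKM + 1) in anti-CTLA4 replicate 1 (x axis) and replicate 2 (y axis) minus its mean over the 5 other libraries, with 60S members in blue, 40S members in orange and a dashed line of equal values. Most points lie below the dashed line, Rpl7l1 and Rps27 lie close to it, and Rpl3 is the farthest to the right.

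The members held 0.546% and 0.616% of all gene reads in IgG, 0.520% and 0.316% in the libraries labelled anti-CTLA4, and 0.578%, 0.547% and 0.569% after CD4 depletion. Both libraries labelled anti-CTLA4 were below the other 5, replicate 1 by a small margin. The group means were 0.581% ± 0.0496 (SD, n = 2) for IgG, 0.418% ± 0.144 (SD, n = 2) and 0.565% ± 0.0159 (SD, n = 3). An exact permutation test, two-sided, gave p = 0.333 against IgG and p = 0.2 against CD4 depletion, which are the smallest values that these group sizes allow. For CD4 depletion against IgG the exact permutation p was 0.8. The ratio of 60S to 40S reads was 1.58 and 1.55 in IgG, 1.30 and 1.43 in the libraries labelled anti-CTLA4, and 1.45, 1.54 and 1.53 after CD4 depletion. The ratio was lowest in replicate 1, the library in which the summed level was near the other groups, and the exact permutation p-values were again the smallest possible, 0.333 and 0.2. The ratio after CD4 depletion was also below both IgG libraries, a difference of means of -0.0608, again at the smallest possible exact permutation p of 0.2. With sums of FPKM in place of reads these libraries overlapped, and the exact permutation p was 0.6.

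The first comparison asked how the microglia differed under anti-CTLA4 alone. Of the 80 members, 22 fell and 0 rose by limma with Benjamini-Hochberg adjustment over all 13028 tested genes, at 27.5% lower beside a background of 28.8% lower and 9.29% higher over all genes. The share that fell was therefore near that of any gene and is not a result about ribosomal proteins. The members' median was -0.43 on the log2(FPKM + 1) scale beside -0.31 for all genes, a difference of -0.12. The subunits had like counts, 14 of 49 in the large and 8 of 31 in the small. The libraries did not overlap in 38 members that were lower and 2 that were higher. These were 47.5% lower beside 54.1% of all genes, and 2.5% higher beside 22.8%.

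The members with the smallest adjusted p were Rpl15, Rps27l, Rpl23a and Rpl27. Rpl15, a large subunit protein whose human gene is mutated in some Diamond-Blackfan anaemia, had 12.7 and 12.3 FPKM in IgG and 6.76 and 4.48 in the libraries labelled anti-CTLA4. It fell by 1.05 on the log2 scale (SE 0.20, limma adjusted p = 0.0115). Rps27l, whose libraries are given above, fell by 1.08 (SE 0.22, limma adjusted p = 0.0132), from 149 ± 2.59 (SD, n = 2) to 71.7 ± 21.8 FPKM (SD, n = 2). In both genes each of the libraries labelled anti-CTLA4 lay below all 5 others.

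Rpl23a lies at the exit of the peptide tunnel. It had 6.30 and 8.20 FPKM in IgG and 3.68 and 2.29 in the libraries labelled anti-CTLA4, and fell by 1.06 (SE 0.23, limma adjusted p = 0.0154). Rpl27, another large subunit protein, had 9.52 and 9.02 against 5.20 and 3.08 FPKM and fell by 1.03 (SE 0.23, limma adjusted p = 0.0164). Rps27a, which is translated as a fusion with ubiquitin, had 5.96 and 6.42 against 2.93 and 2.73 FPKM and fell by 0.91 (SE 0.23, limma adjusted p = 0.0213). Unlike most members, Rps27a differed little between the replicates of the libraries labelled anti-CTLA4. Of runs of 100 bases, 19.96% were unique in Rpl23a, 39.4% in Rpl27 and 37.4% in Rps27a, which also overlaps the protein-coding Clhc1. The values of these members may include reads of other genes or lack reads that match several places.

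Rpl7l1, a paralog of Rpl7 found in precursors of the large subunit, was another member with close replicates. It had 50.1 and 47.3 FPKM in IgG, 31.5 and 32.4 in the libraries labelled anti-CTLA4, and 41.2, 51.2 and 43.1 after CD4 depletion. It fell by 0.59 (SE 0.16, limma adjusted p = 0.026) against IgG. Its deposited transcript is 2597 bases long, which is long for a member. Rpsa, the 40S protein also known as the laminin receptor, had 18.2 and 18.1 FPKM against 11.7 and 6.02 and fell by 1.02 (SE 0.26, limma adjusted p = 0.0231). Rpl5, which with Rpl11 and 5S RNA forms the particle that can bind Mdm2, had 7.45 and 8.72 against 4.28 and 2.87 FPKM and fell by 1.00 (SE 0.24, limma adjusted p = 0.019). Rpl5 has 8.89% unique runs of 100 bases and overlaps Fam69a, so its values may include reads of other genes or lack reads that match them. Rpl11 itself had 8.34 and 7.63 against 9.18 and 4.598 FPKM, with overlapping libraries and an adjusted p of 0.487 by limma.

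**Figure D4:**
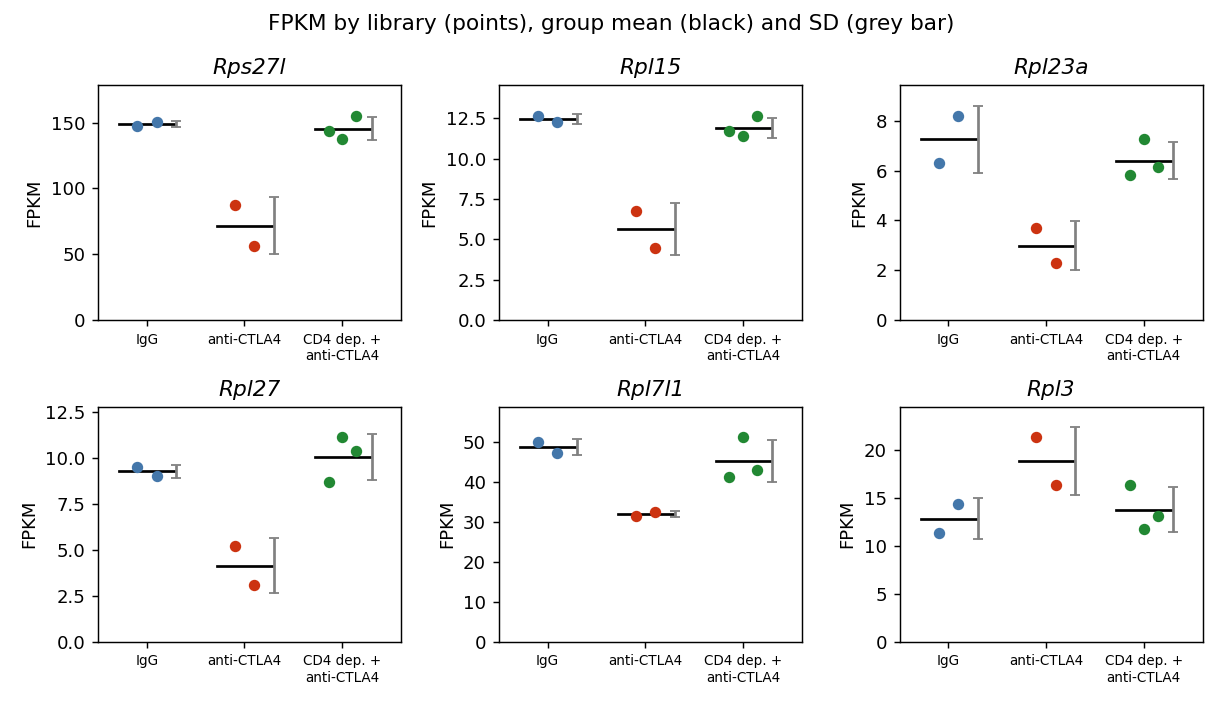
FPKM of 6 members in every library (points, linear axis from 0), with the group mean as a black line and the SD as a grey bar, for IgG (n = 2), anti-CTLA4 (n = 2) and CD4 depletion with anti-CTLA4 (n = 3). Both libraries labelled anti-CTLA4 are below the other 5 in Rps27l, Rpl15, Rpl23a, Rpl27 and Rpl7l1, while those of Rpl3 reach 21.3 and 16.3 FPKM.

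A few members went the other way. Rpl3, which reaches into the peptidyl transferase centre, had 11.3 and 14.4 FPKM in IgG, 21.3 and 16.3 in the libraries labelled anti-CTLA4, and 16.4, 11.8 and 13.1 after CD4 depletion. Its libraries labelled anti-CTLA4 were above both IgG libraries but overlapped those after CD4 depletion. The log2 difference from IgG was 0.52 (SE 0.22, limma adjusted p = 0.0981), and with scaling to the microglia markers it was -0.48. Rpl10 was the only other member with both libraries above both of IgG, at 4.76 and 5.56 against 3.34 and 4.19 FPKM, with an adjusted p of 0.34 by limma. Rpl3 has 20.6% unique runs of 100 bases and Rpl10 has 8.43%, so that values of both may include reads of pseudogenes or lack reads that match them.

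To set members against each other, each library was shifted by the median of its member values, which takes out what the members share. The shift centres the members by construction and moves all other genes by the same amount. Shares of all genes on this scale, here and in the comparisons below, are therefore not a like background for the members' counts. Against that median, 1 of 80 members rose and 0 fell, beside 12.2% of all genes higher and 6.72% lower. The member was Rpl3, with a difference of 0.94 (SE 0.30, limma adjusted p = 0.034). Rpl10, with a mean under 5 FPKM, had 0.80 (adjusted p = 0.161 by limma). Among members of at least 5 FPKM, the next in size were Rpl10a, of the L1 stalk, at 0.77 (SE 0.32, adjusted p = 0.103) and Rps20, of the 40S head, at 0.71 (SE 0.31, adjusted p = 0.122), both by limma. In the other direction, Rps27l had -0.65 (SE 0.26, adjusted p = 0.0963 by limma). Counts on this scale with a library left out follow without the share of all genes, and are not read as results about ribosomal proteins. The count of members past the threshold was 0 without either IgG library, without anti-CTLA4 replicate 2 or without CD4 depletion replicate 3, and 3 without anti-CTLA4 replicate 1.

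The counts in this comparison rested on single libraries. Without anti-CTLA4 replicate 2, 0 members and 0 of all genes were called, and the median was -0.14 beside -0.29 for all genes, a difference of 0.15 that has the opposite sign to the one above. Without replicate 1, 41 members fell, beside 21.4% of all genes, and the median was -0.74. Without either IgG library 0 members were called, beside 0 of all genes called lower without IgG replicate 1 and 440 without replicate 2. Without CD4 depletion replicate 2 or 3, which enter only through the shared spread, 14 and 13 members fell, beside 26.3% and 24.4% of all genes. Under median-of-ratios scaling, which moved the median of all genes from -0.31 to -0.01, the split was 3 higher (Rpl3, Rpl10a and Rpl30) and 4 lower (Rpl27, Rps27a, Rpl15 and Rpl23a), beside 16.4% of all genes higher and 15.7% lower. The members' median was then -0.07. Scaling to the microglia markers gave 68 lower and a median of -1.42 beside -1.12 for all genes. The share of all genes called is not given for that scaling, so the 68 are not read as a result about ribosomal proteins.

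The second comparison set CD4 depletion with anti-CTLA4 against the libraries labelled anti-CTLA4, which it shares with the first. Of the 80 members, 13 rose and 0 fell by limma, at 16.2% beside a background of 22.8% higher and 6.59% lower over all genes. The members' share was thus below that of all genes, and their median of 0.39 stood beside 0.27. The libraries did not overlap in 42 members that were higher, at 52.5% beside 44.7% of all genes, and in 0 that were lower, beside 15.7%. Rpl27 rose from 4.14 ± 1.49 (SD, n = 2) to 10.1 ± 1.25 FPKM (SD, n = 3), by 1.13 (SE 0.21, limma adjusted p = 0.0151). Rps27l rose by 1.04 (SE 0.20, limma adjusted p = 0.0161), Rpl15 by 0.99 (SE 0.18, adjusted p = 0.0145) and Rps27a by 1.03 (SE 0.21, adjusted p = 0.0165). For these 4 members all 3 CD4 depletion libraries were above both libraries labelled anti-CTLA4.

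Of the 13, 12 had also been called lower in the first comparison, and the shared libraries enter both calls. Rpl31, a large subunit protein near the tunnel exit, was called in the second alone. It overlaps Tbc1d8, with which it may share reads. It had 2.81 and 2.92 FPKM in the libraries labelled anti-CTLA4, 5.05, 5.16 and 6.11 after CD4 depletion and 5.34 and 4.04 in IgG, with differences of 0.73 (SE 0.18, limma adjusted p = 0.0251) here and -0.55 (SE 0.19, limma adjusted p = 0.0593) there. The largest departures above the member median were in Rpl27, Rpl36a and Rps27l, and Rpl36a, an X-linked member with 16.4% unique runs, rose by 1.07 before that shift (SE 0.26, limma adjusted p = 0.0251). Against the member median 0 members were called in either direction, beside 4.65% of all genes higher and 9.1% lower. Rpl3 was the nearest at -0.83 (SE 0.27, limma adjusted p = 0.0507), and 4 members were higher and 2 lower at an unadjusted p under 0.05.

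Without anti-CTLA4 replicate 2 no member and no other gene was called in the second comparison, and the median was 0.15 beside 0.26 for all genes, a difference of -0.11 against 0.12 with it. Without replicate 1, 37 members rose (46.2%), beside 15.7% of all genes. Without CD4 depletion replicate 3, 0 members were called, beside 5.13% of all genes higher, and without replicate 2 of that group 5 (6.25%), beside 7.51%. Without IgG replicate 1 or 2 there were 8 and 7, beside 15.5% of all genes each time. Under median-of-ratios scaling 4 members rose, beside 11.2% of all genes higher and 12.6% lower.

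The third comparison, CD4 depletion with anti-CTLA4 against IgG, does not use the libraries labelled anti-CTLA4. No member was called by limma, beside a background of 0% of all genes in either direction, and 0 members had an unadjusted p under 0.05. The members' median was -0.03 beside -0.04 for all genes, and single members ranged from -0.35 to 0.43 on the log2 scale. The largest departures upward among members of at least 5 FPKM were Rpl34, with 27.7 and 31.8 FPKM in IgG and 38.5, 36.5 and 39.1 after CD4 depletion, and Rpl30, with 11.6 and 14.5 against 15.4, 15.3 and 17.6. Neither pair of groups overlapped, and both had an adjusted p of 0.71 by limma. Rpl34 overlaps Rpl34-ps1, a row annotated as protein-coding, and reads in the bases they share cannot be told apart. Of its runs of 100 bases, 69.0% occur in no other gene. Rpl5 was the largest downward, at 7.45 and 8.72 in IgG and 6.19, 7.46 and 4.95 FPKM, with overlapping libraries and an adjusted p of 0.713 by limma. Against the member median 0 members were called as well, beside 0.023% of all genes higher and 0.0384% lower. These values do not show that the groups were alike.

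By place in the ribosome, the counts of members that fell against IgG were 3 of 9 around the exit tunnel, 3 of 14 in the 40S head, 4 of 16 in the 40S body, 1 of the 2 proteins of the 5S particle and 0 of the 3 P stalk proteins, which recruit elongation factors. The tunnel (33.3%), head (21.4%) and body (25%) shares lie near the 28.8% of all genes. Rplp0, the base of the P stalk, had 208 and 202 FPKM in IgG, 155 and 79.0 in the libraries labelled anti-CTLA4, and 197, 196 and 203 after CD4 depletion, with a limma adjusted p of 0.0519 against IgG. Of 4 members near the peptidyl transferase centre and L1 stalk, Rpl8 fell (225.6 and 252.8 FPKM against 159.7 and 91.3, limma adjusted p = 0.031), and Rpl3, Rpl10 and Rpl10a had positive differences that were not called.

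Paralogs named as "like" forms were 4 among the members. Rpl7l1 and Rps27l fell against IgG and rose in the second comparison. Rpl22l1, the paralog of the RNA-binding protein Rpl22, had 24.3 and 37.2 FPKM in IgG, 23.5 and 15.6 in the libraries labelled anti-CTLA4, and 34.9, 28.6 and 25.7 after CD4 depletion, with limma adjusted p-values of 0.107 and 0.105. Rpl32l, which overlaps Map7, had 10.97 and 11.7 FPKM in IgG, 9.63 and 6.14 in the libraries labelled anti-CTLA4, and 11.5, 9.61 and 9.90 after CD4 depletion, with limma adjusted p-values of 0.104 and 0.18, and stood at 2.63% to 3.74% of Rpl32. Rpl22l1 stood at 1.54 to 2.68 times the level of Rpl22 in FPKM. Rps27l stood at 17.3 to 44.0 times Rps27, with the lowest ratio in anti-CTLA4 replicate 2, and Rpl7l1 at 0.352 to 0.521 times Rpl7. The Rps27 row shares its span with Rps27rt and has 54.4% unique runs of 100 bases, against 100% for Rps27l. Their ratio is one of deposited FPKM and may not be that of the mRNAs. Coding identity was 67.5% for Rpl22 and Rpl22l1 and 54.5% for Rpl7 and Rpl7l1. The parent genes Rps27, Rpl22, Rpl7 and Rpl32 had adjusted p-values of 0.384, 0.242, 0.0897 and 0.49 by limma against IgG. Rpl7 differed by -0.51 (SE 0.21), and both libraries labelled anti-CTLA4 lay below all 5 others. Whether the forms within a pair differ in response was not tested.

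Rps4l, named after its likeness to the X-linked 40S gene Rps4x and left out of the members as an annotated pseudogene, ran opposite to most of them. It had 8.31 and 7.41 FPKM in IgG, 21.5 and 22.9 in the libraries labelled anti-CTLA4, and 11.9, 9.85 and 10.1 after CD4 depletion. It rose by 1.39 against IgG (SE 0.16, limma adjusted p = 0.00936) and fell in the second comparison, by 1.00 (SE 0.15, limma adjusted p = 0.0121). Of its runs of 100 bases, 98.3% occur in no other gene, and it lies within Tmtc1, with which it may share reads. Rps4x itself had 47.1 and 52.6 FPKM in IgG and 38.4 and 25.4 in the libraries labelled anti-CTLA4 and fell (-0.66, SE 0.21, limma adjusted p = 0.0409).

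The machinery that builds ribosomes had larger counts than their proteins. Of 43 tested ribosome biogenesis genes, 34 fell against IgG (79.1%, beside the 28.8% of all genes) and 32 rose in the second comparison (74.4% beside 22.8%), with medians of -0.82 and 0.71. Nop58, of the box C/D particles that guide rRNA methylation, had 38.5 and 40.5 FPKM in IgG, 18.2 and 15.8 in the libraries labelled anti-CTLA4 and 38.4, 41.2 and 41.3 after CD4 depletion. It fell by 1.17 (SE 0.15, limma adjusted p = 0.00936). Rrp15, needed for large subunit precursors, had 33.3 and 32.2 against 12.97 and 8.65 FPKM and fell by 1.54 (SE 0.23, limma adjusted p = 0.00936). Without anti-CTLA4 replicate 2 the median of the list was -0.71 beside -0.29 for all genes, and 0 of 43 were called, as for all genes. Without replicate 1 the median of the list was -0.90.

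Among 18 other genes whose mRNAs carry TOP motifs, such as elongation factors, 13 fell against IgG (72.2% beside 28.8% of all genes) and 10 rose in the second comparison (55.6% beside 22.8%), with medians of -0.75 and 0.60. Hnrnpa1, a splicing factor, had 12.3 and 15.5 against 5.22 and 3.42 FPKM, and Nap1l1, a histone chaperone, had 11.1 and 13.4 against 5.35 and 3.28. Without anti-CTLA4 replicate 2 their median was -0.50, with 0 called. Under median-of-ratios scaling 3 fell and 1 rose against IgG, and of the biogenesis genes 14 fell and 2 rose, beside 15.7% of all genes lower and 16.4% higher. Of 6 tested ribosomal protein genes that the naming rule leaves out, 1 fell (16.7% beside 28.8% of all genes: Fau, a fusion with the 40S protein eS30, 15.4 and 11.05 against 8.001 and 4.71 FPKM) and 2 rose in the second comparison (33.3% beside 22.8%: Fau and Rpl36al).

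Of 21 regulators of ribosome production by mTORC1 and Myc, 8 fell against IgG and 8 rose in the second comparison (38.1% for each, beside 28.8% and 22.8% of all genes). That list mixes activators, such as Myc and Rheb, with inhibitors, such as Tsc1, Tsc2 and Mxd1. Its counts therefore give no direction for ribosome production. Myc, which drives transcription of ribosome genes, had 60.7 and 62.6 FPKM in IgG, 24.4 and 13.8 in the libraries labelled anti-CTLA4 and 54.6, 55.7 and 45.4 after CD4 depletion. It fell by 1.69 (SE 0.26, limma adjusted p = 0.00936) and rose by 1.44 (SE 0.23, limma adjusted p = 0.0127). Rheb, the activator of mTORC1, had 68.5 and 60.9 against 39.2 and 33.7 FPKM. Of 14 RNA polymerase I genes 6 fell (42.9%) and 2 rose (14.3%), and of 12 rescue and quality control genes 5 fell (41.7%) and 4 rose (33.3%), read against the same 28.8% and 22.8%. Of 10 host genes of small nucleolar RNAs 2 fell (20%) and 1 rose (10%), both below those shares. In the third comparison 0 genes of these lists were called. The lists were chosen with earlier results of these data known, their counts are descriptions, and the summed markers of several cell types given above moved with them.

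**Figure D5:**
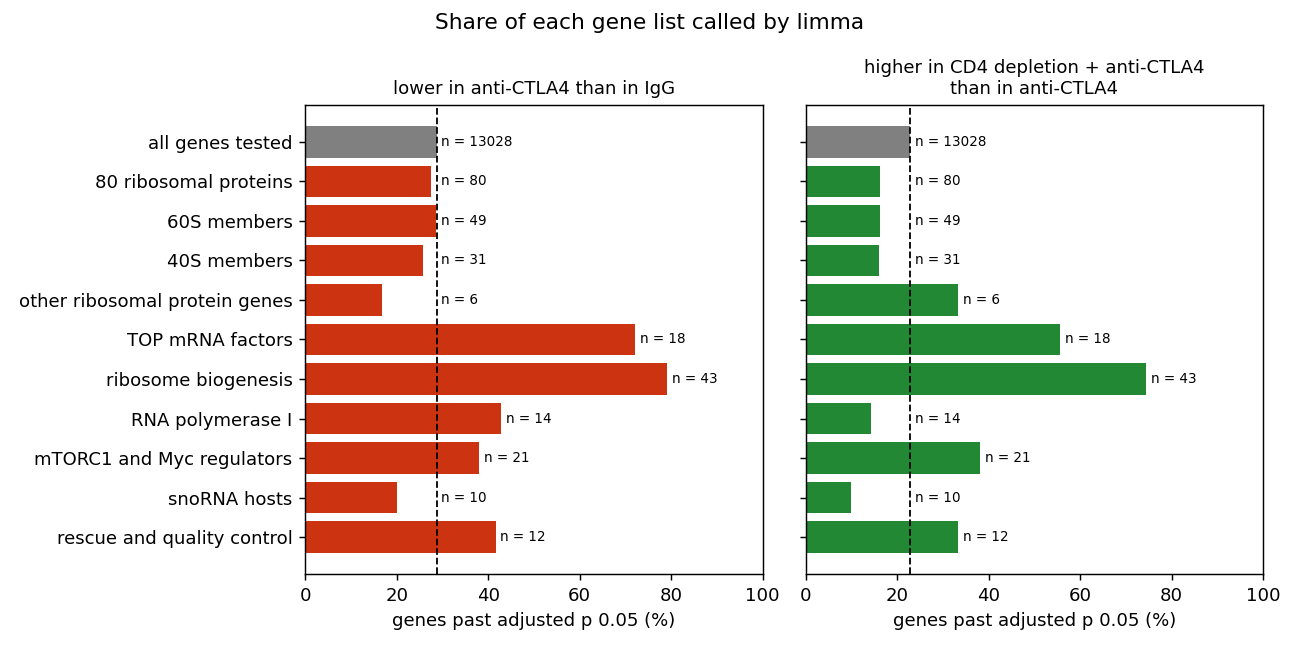
Percentage of each gene list past an adjusted p of 0.05, lower under anti-CTLA4 than under IgG (left) and higher after CD4 depletion than under anti-CTLA4 alone (right), with all tested genes in grey and as a dashed line and n the tested genes. The bar of the 80 members ends near or short of the dashed line, and those of ribosome biogenesis and TOP mRNA factors reach past it.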

How the data were processed

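RNA from sorted microglia had been made into ultra-low-input cDNA libraries and sequenced on a HiSeq2500, per the labels' protocols. The submitters' processing notes name STAR, HOMER, DESeq2 and mm10, with versions not given in the sources used here. The authors deposited FPKM values, made with HOMER from exon reads of both strands, with 1 condensed row per gene and scaling to library size, per the file headers. How reads with several matches were treated is not given in the sources used here.

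From these, log2(FPKM + 1) was fitted with limma 3.58.1 in R 4.3.3 over all 7 libraries with group as the only term and a mean-variance trend, for the 13028 genes of at least 1 FPKM in at least 2 libraries. P-values were two-sided and adjusted by the Benjamini-Hochberg method over all genes, at 0.05. Fold changes on this scale understate those of low genes. Reads per member were recovered from the steps of low values, all of which lay within 0.1 of whole reads. Python 3.11.15 with pandas 2.3.3, numpy 2.4.6 and scipy 1.17.1 served for the rest, and the fit was tested on simulated data. Exact permutation tests compared single values per library.

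The members and gene lists were chosen with earlier results of these data known. Named members were, per comparison and direction, the 4 called with the smallest adjusted p, the 3 largest departures from the member median among members of at least 5 FPKM, the 3 highest and 3 lowest by mean, those next to the FPKM minimum, and a panel of paralogs and proteins with known roles. In other lists, the 2 with the smallest p were named. Some items that these rules name are not reported here. The uniqueness and length classes, the ranks by library, the printed sequences, and Rpl8, Rpl31 and Rheb were chosen after their values were seen. Alternatives were other pseudocounts, filters, scalings, a replicate block, only the groups compared, and leaving out each library.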

Additional observations from a re-analysis of the deposited data

How the results depend on the processing

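With 2 or 3 libraries a group, single libraries decided the counts. The ranges of counts below have no share of all genes beside them and are not read as results about ribosomal proteins. When each replicate was left out in turn, members lower against IgG ranged from 0 to 41 and their median from -0.74 to -0.14. In the second comparison, those higher ranged from 0 to 37 and the median from 0.15 to 0.70. Against the member median, members higher in the first ranged from 0 to 3, and lower in the second from 0 to 2.

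For the first comparison, the count lower was 10 without a filter on low values, 4 with median-of-ratios scaling (with 3 higher), 8 with quantile normalization (with 1 higher), 68 with scaling to the microglia markers, 14 with only the groups compared, and 13 of the 47 members with at least 50% unique runs of 100 bases (27.7%, beside 27.5% of all 80), an alternative chosen after seeing the data. The median was -0.072 with median-of-ratios and -1.42 with microglia scaling. For the second, the count higher was 6 without a filter, 4 with median-of-ratios scaling, 7 with quantile normalization, 30 after scaling to the FPKM sum, 68 with microglia scaling, 8 with only the groups compared, and 7 of those 47 members (14.9%, beside 16.2%). The median was 0.11 and 1.26 with the 2 scalings. The share of all genes under the same setting is not given beside these counts. They describe how the calls depend on the processing and are not results about ribosomal proteins.

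Against the member median, a scale also added after seeing the data, members higher in the first comparison were 0 without the mean-variance trend, 0 with the replicate block and 0 with only the groups compared. Members lower in the second were 1 with log2(FPKM + 0.1) and 2 among genes with a mean of at least 5 FPKM. These counts, too, have no share of all genes beside them. With sums of FPKM in place of reads, the members' share was 1.53% in IgG, 1.05% in the libraries labelled anti-CTLA4 and 1.48% after CD4 depletion, and the 60S to 40S ratio 1.35, 1.25 and 1.32. By that measure CD4 depletion replicate 3, at 1.353, was above both IgG libraries, at 1.340 and 1.352.

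The replicate block left 4 members lower in the first comparison and 0 higher in the second, again without the share of all genes beside them. The labels do not say what a replicate number shares, so the numbers were not taken as pairs. The correlation of deviations of same-numbered libraries was -0.12 for IgG with anti-CTLA4, -0.18 and -0.20 for IgG with CD4 depletion, and 0.078 and 0.12 for anti-CTLA4 with CD4 depletion.

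With microglia scaling, signs turned in the first comparison for Rpl3 (-0.48), Rpl10a (-0.60) and Rps20 (-0.67), and in the second for Rpl3 (0.45), Rps20 (0.49) and Rpl10a (0.70). With single replicates left out, Rpl10a ranged from -0.28 to 0.041 in the second comparison, positive without anti-CTLA4 replicate 1, and turned without IgG replicate 1 in the third (-0.0058). Of the other settings of single members, 417 kept direction and side of the threshold, 112 lost the call and 3 gained one. The cause of these shifts was not tested.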
